A study of Rattus norvegicus with 16 samples.

Results

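The genes described here are 42 endothelial and angiogenesis genes: markers of the endothelial surface and its junctions, receptors and ligands of the vascular endothelial growth factor (VEGF) and angiopoietin families, their co-receptors, endothelial transcription factors, leukocyte adhesion molecules and genes of sprouting and of arteriovenous identity. They were chosen by name as known genes of blood vessels. Of the 42, 38 were measured, each by a single row of the array named by the platform annotation. Pecam1, Kdr, Eng and Ephb4 had no row naming them alone and are not analysed here. The whole table gave 17245 genes.

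Cells adhering to commercially pure titanium implants were recovered from the tibiae of 8 male Sprague Dawley rats, 4 rats for each day. The age of the rats is not given in the sources used here. The AT-I implant carries nanoscale surface features, and the AT-II implant is microrough without such features. The 4 groups were AT-I at day 4, AT-I at day 2, AT-II at day 4 and AT-II at day 2, with 4 arrays each. No implant without a surgical wound and no unoperated bone was included, so all groups share drilling, implantation and postoperative analgesia. Each rat bore the AT-I surface in the tibia of one side and the AT-II surface opposite, and the 2 implants of a tibia were pooled into 1 RNA sample. RNA was hybridised to Affymetrix Rat Gene 1.1 ST arrays, on which expression is a log2 value per gene, so that a difference of 1 is a doubling. No label links a replicate number to a rat, and the p-values between surfaces therefore ignore that each rat bore both.

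Endothelial cells line all blood vessels. VEGF ligands bind the receptors Flt1, Kdr and Flt4 and drive sprouting and permeability, the neuropilins Nrp1 and Nrp2 act as co-receptors, and the angiopoietins act on the receptor Tek to stabilise or loosen the vessel wall. In healing bone, new vessels grow into the clot and the granulation tissue around an implant before and while bone matrix is laid down, and leukocytes leave vessels through selectins and adhesion molecules. Several of these genes are not particular to endothelium: Vegfa, Angpt1 and Nrp2 are also made by stromal cells, Cd34 and Tek by haematopoietic progenitors, Fli1 by many blood cells, and Selp and Vwf by platelets.

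The array values ran from 1.82 to 14.01. Replicates 2 and 3 of AT-II at day 2 differed far less than any other of the 120 pairs of arrays: among the most variable 10% of 2608 bright genes (mean over 9), their values differed with an SD of 0.0840, against at least 0.2974 in every other pair. They were averaged and counted as 1 sample, which gives 15 samples and n = 3 for AT-II at day 2, and results that depend on this are given both ways. The spread of values within an array, as the interquartile range, was 2.669 ± 0.222 on AT-I at day 2 against 3.218 ± 0.182 on AT-II at day 2, and 3.035 ± 0.349 on AT-I at day 4 against 3.259 ± 0.164 on AT-II at day 4 (SD). Precision is limited by how few arrays each group has. The table holds no detection calls, so whether the lowest rows lie above background is unknown, and levels of different genes are not set against each other.

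Markers of cell types were read in each sample. The defining endothelial markers with a row were Cdh5, Tek, Tie1, Emcn, Cldn5, Robo4, Egfl7 and Esam. Each array row gives a value in all 15 samples, and there are no detection calls. These values therefore cannot show whether endothelial cells were present. Cdh5, the cadherin of endothelial junctions, lay between 7.50 and 8.36 and Robo4 between 5.02 and 5.58. Markers of other cells were measured beside them. The mean of 8 of 9 stromal markers was 11.27 to 11.50 on AT-I at day 4 against 8.70 to 10.23 on AT-I at day 2, and 11.28 to 11.53 on AT-II at day 4 against 9.47 to 10.61 on AT-II at day 2. For 7 of 8 osteoblast markers it was 9.74 to 10.47 on AT-I at day 4 against 6.75 to 7.83 on AT-I at day 2, and 9.70 to 10.59 on AT-II at day 4 against 6.84 to 8.19 on AT-II at day 2. Stromal and osteoblast markers thus separated the days without overlap on both surfaces. Their part in the results below was not tested.

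Promoter sequences are shown for Nrp2 and Pgf, the genes that passed the test between days on both surfaces, and for Egfl7, an endothelial surface gene that passed on AT-I. Each is the 250 bases before the annotated start, read 5′ to 3′ on the gene's strand, from RefSeq on the rat build GRCr8. Capitals mark matches, on either strand, to an ETS core (AGGAAG, the motif of factors such as Erg and Fli1), a GC box (GGGCGG) or a hypoxia response core (ACGTG).
Nrp2: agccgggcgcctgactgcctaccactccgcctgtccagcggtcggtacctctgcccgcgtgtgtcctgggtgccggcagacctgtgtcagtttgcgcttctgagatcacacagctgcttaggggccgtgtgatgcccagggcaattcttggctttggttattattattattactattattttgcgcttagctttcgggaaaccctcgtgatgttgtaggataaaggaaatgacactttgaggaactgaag
Pgf: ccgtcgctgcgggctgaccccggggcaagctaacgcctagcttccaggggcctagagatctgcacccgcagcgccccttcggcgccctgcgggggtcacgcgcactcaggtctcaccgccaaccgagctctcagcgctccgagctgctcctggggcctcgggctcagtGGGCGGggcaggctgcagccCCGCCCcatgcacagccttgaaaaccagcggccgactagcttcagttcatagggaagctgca
Egfl7: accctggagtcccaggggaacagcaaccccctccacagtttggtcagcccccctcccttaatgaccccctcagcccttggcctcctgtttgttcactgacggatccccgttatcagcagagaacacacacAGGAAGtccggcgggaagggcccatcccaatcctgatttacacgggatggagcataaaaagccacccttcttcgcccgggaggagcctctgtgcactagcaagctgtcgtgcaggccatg
The Nrp2 window lies at chr9:71617004-71617253 on the plus strand, has a GC content of 52.8% and holds 0 matches. The Pgf window lies at chr6:110557748-110557997 on the minus strand, has a GC content of 69.2% and holds 2 GC box matches. The Egfl7 window lies at chr3:29805381-29805630 on the plus strand, has a GC content of 59.2% and holds 1 ETS core match. Of the 42 genes, 27 have an entry of this kind. Angpt1, Angpt2 and Aplnr, which also passed on AT-I, have none and are not shown for that reason. An ETS core match was in 13 of those 27 windows (48.1%), against 29.4% of all 27457 promoters, a GC box match in 15 (55.6%), against 32.4%, and a hypoxia response core in 3 (11.1%), against 16.9%. A match is a run of letters and says nothing about binding in these cells.

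The first question was how the genes differed between day 4 and day 2 on the nanoscale surface. On AT-I, 6 of 38 genes rose and 0 fell by limma (Benjamini-Hochberg adjusted p under 0.05 over all genes). That is 15.8% of the genes, against 11.5% of all genes called in either direction, 8.84% called higher and 2.66% called lower. The 6 were Nrp2, Pgf, Angpt2, Aplnr, Angpt1 and Egfl7. Of these, 3 are ligands, 1 is a co-receptor, 1 a receptor of sprouting vessels and 1 an endothelial surface gene. The median difference over the 38 genes was 0.23, against -0.05 over all genes. On AT-II, 2 of 38 rose and 0 fell (5.26%), against 3.33% of all genes called in either direction, 3.13% called higher and 0.203% called lower, and the median difference was -0.01, against -0.05 over all genes. The 2 were Nrp2 and Pgf. The AT-II median lay near 0, and its sign changed between settings. It was 0.13 without replicate 1 of AT-II at day 2, with 13 of 38 genes below 0, against 20 of 38 with it. With all 16 arrays counted separately it was 0.04, with 15 of 38 below 0. It was 0.08 with array quality weights and 0.06 without replicate 1 of AT-II at day 4. After another quantile normalization it was -0.04, and without the averaged AT-II day 2 sample -0.08. At an unadjusted p under 0.05 in either direction, the counts were 16 of 38 on AT-I, against 27.9% of all genes, and 6 of 38 on AT-II, against 13.0%. With 1 sample left out at a time, the count was 4 to 10 on AT-I and 1 to 2 on AT-II. Over the same settings the share of all genes ran from 6.71% to 17.1% on AT-I and from 1.29% to 4.02% on AT-II. The 10 was without replicate 1 of AT-II at day 2, where 12.2% of all genes passed on AT-I. In bulk RNA of this kind, more or fewer cells of a type and more or less RNA per cell cannot be told apart.

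**Figure D1:**
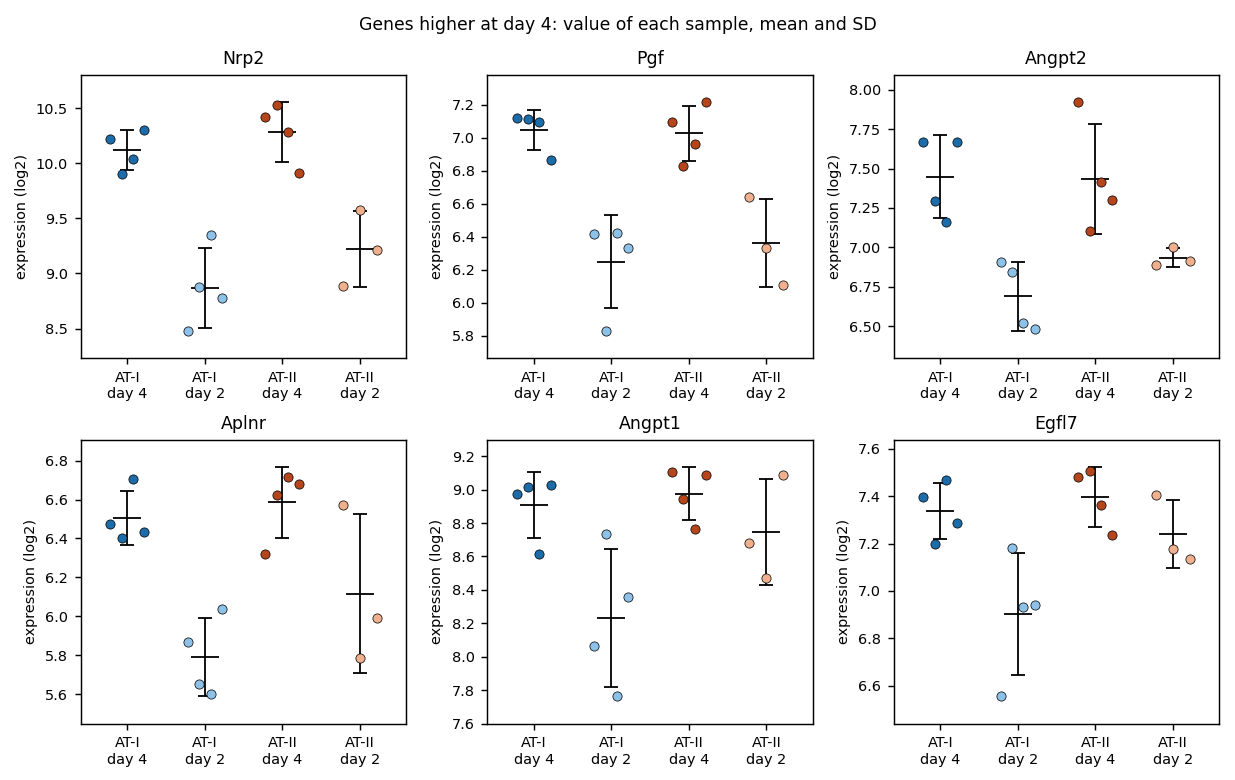
Expression (log2, y axis) of the 6 genes that rose on AT-I, with 1 point per sample in each of the 4 groups (x axis). The horizontal bar is the mean and the whisker the SD (n = 4, or 3 for AT-II at day 2). On AT-I, Nrp2, Pgf, Angpt2, Aplnr and Egfl7 do not overlap between the days, and on AT-II Nrp2, Pgf and Angpt2 do not.

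Among the co-receptors, Nrp2 differed most. Nrp2 (array row 10923835) is a co-receptor for VEGF ligands and for semaphorins. On AT-I it stood at 10.22, 9.90, 10.04 and 10.30 at day 4, against 8.48, 8.88, 9.35 and 8.78 at day 2. On AT-II it stood at 10.42, 10.53, 10.28 and 9.91 at day 4, against 8.89, 9.21 and 9.57 at day 2. All day 4 samples were above all day 2 samples on both surfaces. The difference was 1.24 ± 0.19 on AT-I (SE), a fold of 2.37 (limma adjusted p = 0.000656), and 1.06 ± 0.21 on AT-II, a fold of 2.09 (limma adjusted p = 0.00868). The AT-II call passed in 27 of 28 other settings, with differences of 0.89 to 1.23. It was lost without replicate 1 of AT-II at day 2, where the difference was 0.89 with an adjusted p of 0.0806 (limma).

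Nrp1, the related co-receptor, did not pass. On AT-I it stood at 8.86, 9.27, 8.70 and 9.15 at day 4, against 8.35, 8.85, 8.86 and 8.63 at day 2. The Nrp1 difference was 0.33 ± 0.15 on AT-I (limma adjusted p = 0.169) and -0.01 ± 0.16 on AT-II (limma adjusted p = 0.992).

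Of the 7 ligands, Pgf, Angpt2 and Angpt1 rose on AT-I and Pgf rose on AT-II. Pgf (array row 10891240), placental growth factor, is a VEGF family ligand of Flt1. On AT-I it stood at 7.12, 7.11, 7.09 and 6.86 at day 4, against 6.41, 5.83, 6.42 and 6.33 at day 2. On AT-II it stood at 7.10, 6.83, 6.96 and 7.22 at day 4, against 6.64, 6.11 and 6.33 at day 2. The days did not overlap on either surface. The Pgf difference was 0.80 ± 0.15 on AT-I, a fold of 1.74 (limma adjusted p = 0.00315), and 0.67 ± 0.17 on AT-II, a fold of 1.59 (limma adjusted p = 0.0358). The AT-II difference of Pgf ran from 0.48 to 0.81 over 28 other settings and passed in 19 of them. Without the averaged AT-II day 2 sample it was 0.54 (limma adjusted p = 0.220), and the call was also lost without replicate 4 of AT-II at day 2, replicate 1, 3 or 4 of AT-II at day 4 or replicate 1 of AT-I at day 4.

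Angpt2 (array row 10789291) is the angiopoietin released by endothelial cells that opposes Angpt1 at the receptor Tek. On AT-I, Angpt2 stood at 7.67, 7.30, 7.16 and 7.67 at day 4, against 6.91, 6.85, 6.52 and 6.48 at day 2. On AT-II, Angpt2 stood at 7.92, 7.10, 7.41 and 7.30 at day 4, against 6.89, 6.92 and 7.00 at day 2. The days did not overlap on either surface, but only the AT-I difference passed: 0.76 ± 0.17 on AT-I (fold 1.69, limma adjusted p = 0.0100) and 0.50 ± 0.19 on AT-II (limma adjusted p = 0.225). With the interquartile range as a covariate, the AT-I call for Angpt2 was lost (0.64, limma adjusted p = 0.0602).

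Angpt1 (array row 10903529), the angiopoietin that activates Tek, stood on AT-I at 8.97, 9.01, 8.62 and 9.03 at day 4, against 8.07, 8.73, 7.76 and 8.36 at day 2. On AT-II, Angpt1 stood at 9.10, 8.94, 8.76 and 9.09 at day 4, against 8.68, 9.09 and 8.47 at day 2. The days overlapped on both surfaces, by 1 day 4 sample on AT-I. The Angpt1 difference was 0.68 ± 0.19 on AT-I (fold 1.60, limma adjusted p = 0.0309) and 0.23 ± 0.21 on AT-II (limma adjusted p = 0.723). With the array's interquartile range as a covariate the AT-I difference of Angpt1 was 0.34 with an adjusted p of 0.198 (limma), and the call was also lost without replicate 1 or 3 of AT-I at day 2 and without replicate 1, 2 or 4 of AT-I at day 4.

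Vegfa, the main VEGF ligand and a target of hypoxia signalling, pointed the other way without passing. On AT-I, Vegfa stood at 7.83, 8.08, 8.48 and 7.52 at day 4, against 9.51, 8.02, 8.63 and 8.54 at day 2. Its highest value was in replicate 1 of AT-I at day 2. On AT-II, Vegfa stood at 8.29, 8.60, 8.08 and 8.40 at day 4, against 9.08, 8.12 and 8.42 at day 2. The Vegfa difference was -0.70 ± 0.28 on AT-I (limma adjusted p = 0.122) and -0.20 ± 0.31 on AT-II (limma adjusted p = 0.868). On AT-I it was -0.42 without replicate 1 of day 2 (limma adjusted p = 0.334) and -0.92 without replicate 2 of day 2, where it passed (limma adjusted p = 0.0414).

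The other ligands did not pass. Vegfb, a VEGF ligand of Flt1, stood on AT-I at 7.47, 7.92, 7.50 and 7.81 at day 4, against 6.66, 7.19, 7.42 and 7.10 at day 2, with no overlap. Its difference was 0.58 ± 0.20 on AT-I (limma adjusted p = 0.0707) and 0.55 ± 0.21 on AT-II (limma adjusted p = 0.248). Vegfc, the lymphatic VEGF ligand of Flt4, differed by 0.31 ± 0.18 on AT-I and 0.13 ± 0.20 on AT-II. Angpt4, the least studied angiopoietin, differed by -0.08 ± 0.14 on AT-I and 0.03 ± 0.16 on AT-II.

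None of the 4 measured receptors passed on either surface. Tek, the angiopoietin receptor, stood on AT-I at 7.98, 8.08, 7.71 and 7.83 at day 4, against 7.71, 7.45, 7.06 and 7.32 at day 2. On AT-II, Tek stood at 7.88, 7.90, 7.93 and 8.26 at day 4, against 8.53, 7.94 and 7.76 at day 2. The AT-I samples met at 7.71, and the AT-II samples overlapped. The Tek difference was 0.52 ± 0.17 on AT-I (limma adjusted p = 0.0669) and -0.09 ± 0.19 on AT-II (limma adjusted p = 0.921). Tie1, the orphan partner of Tek, differed by 0.23 ± 0.18 on AT-I and -0.01 ± 0.19 on AT-II. The VEGF receptor Flt1 differed by 0.23 ± 0.20 and 0.12 ± 0.21, and Flt4, the receptor of lymphatic and sprouting endothelium, by 0.08 ± 0.19 and 0.01 ± 0.20, on AT-I and AT-II in that order.

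**Figure D2:**
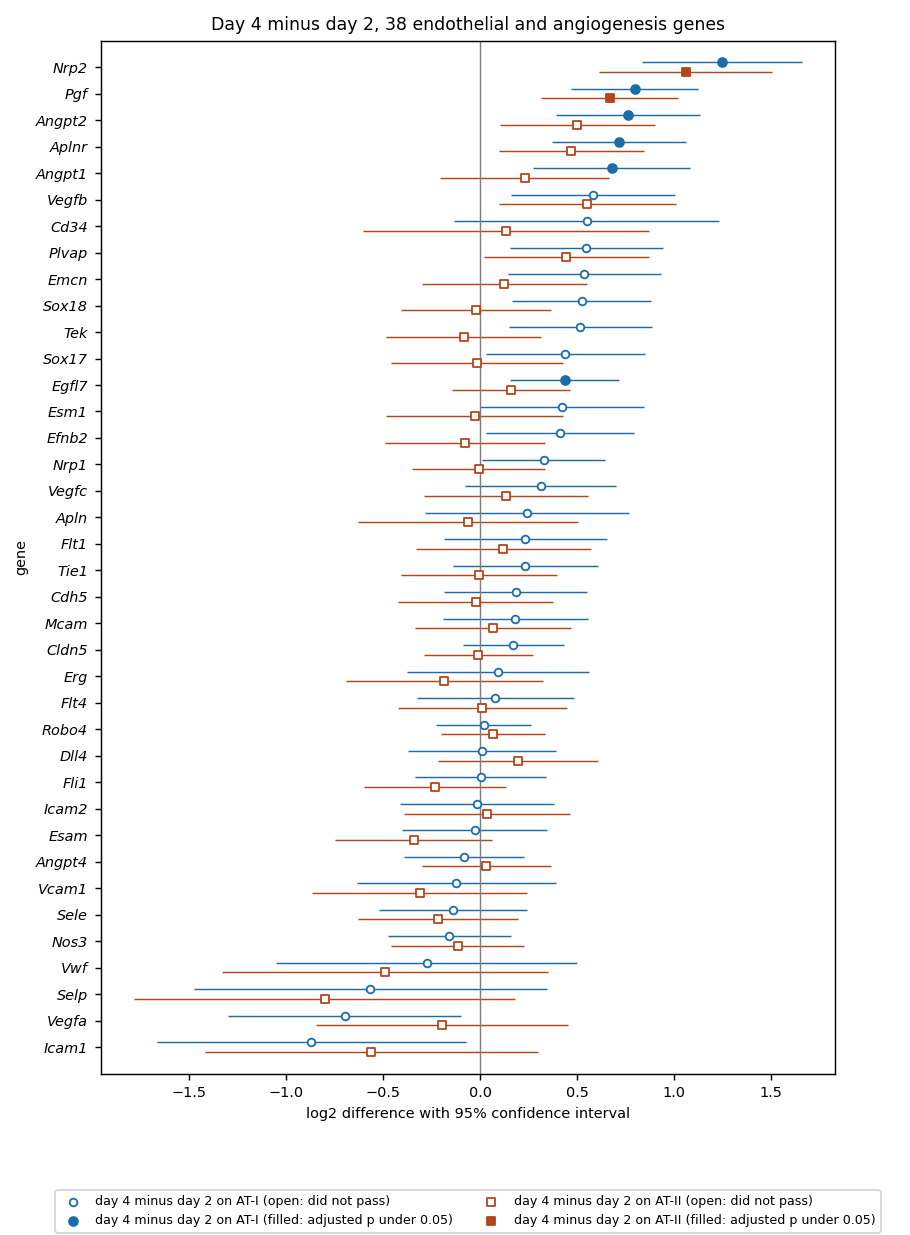
Difference between day 4 and day 2 (log2, x axis) for each of the 38 genes (y axis), on AT-I (circles) and AT-II (squares), with 95% confidence intervals. Filled symbols passed at an adjusted p under 0.05: 6 genes on AT-I and 2 on AT-II, all above 0.

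Of the 12 measured genes of the endothelial surface and junctions, Egfl7 rose on AT-I and 0 passed on AT-II. Egfl7 (array row 10834447) is a protein that endothelial cells secrete into their matrix, and its gene hosts a microRNA. On AT-I, Egfl7 stood at 7.40, 7.20, 7.47 and 7.29 at day 4, against 6.56, 7.18, 6.93 and 6.94 at day 2. On AT-II, Egfl7 stood at 7.48, 7.51, 7.36 and 7.23 at day 4, against 7.40, 7.14 and 7.18 at day 2. The days did not overlap on AT-I, where 7.20 at day 4 stood just above 7.18 at day 2, and overlapped on AT-II. The Egfl7 difference was 0.43 ± 0.13 on AT-I (fold 1.35, limma adjusted p = 0.0454) and 0.16 ± 0.14 on AT-II (limma adjusted p = 0.729). This was the least stable of the calls, passing in 9 of 28 other settings, with differences of 0.27 to 0.53. Of the 15 settings that left out 1 sample it passed in 2, without replicate 2 of AT-I at day 2 and without replicate 1 of AT-II at day 2.

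Emcn, a sialomucin of capillary and venous endothelium that marks the vessels coupled to bone formation, stood on AT-I at 8.74, 8.11, 8.61 and 8.69 at day 4, against 8.09, 8.08, 7.94 and 7.90 at day 2. The AT-I samples did not overlap, and the difference of 0.54 ± 0.19 did not pass (limma adjusted p = 0.0734). On AT-II the Emcn difference was 0.12 ± 0.20. Plvap, a protein of endothelial fenestrae, stood on AT-I at 6.76, 7.18, 6.55 and 6.83 at day 4, against 6.09, 6.31, 5.98 and 6.74 at day 2. Its difference was 0.55 ± 0.19 on AT-I (limma adjusted p = 0.0679) and 0.44 ± 0.20 on AT-II (limma adjusted p = 0.356).

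None of the junction genes passed. Cdh5 stood on AT-I at 8.12, 7.59, 7.90 and 7.87 at day 4, against 7.74, 7.61, 7.77 and 7.63 at day 2. The Cdh5 difference was 0.18 on AT-I (95% interval -0.19 to 0.55) and -0.02 on AT-II (-0.42 to 0.38), and both intervals lie within 0.55 of 0 on the log2 scale. Cldn5, the endothelial claudin, differed by 0.17 ± 0.12 on AT-I and -0.01 ± 0.13 on AT-II. Esam, an adhesion molecule of endothelial junctions and platelets, differed by -0.03 ± 0.18 on AT-I and -0.34 ± 0.19 on AT-II, where the days did not overlap. Robo4, an endothelial guidance receptor, differed by 0.02 ± 0.12 and 0.07 ± 0.13, and Mcam, an adhesion molecule of endothelium and pericytes, by 0.18 ± 0.18 and 0.07 ± 0.19, on AT-I and AT-II in that order. Icam2, an adhesion molecule of resting endothelium and platelets, differed by -0.02 ± 0.19 and 0.04 ± 0.20, and Nos3, the endothelial nitric oxide synthase, by -0.16 ± 0.15 and -0.12 ± 0.16.

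Cd34 varied widely among samples. Cd34 stood on AT-I at 8.36, 7.83, 8.31 and 8.33 at day 4, against 8.05, 6.93, 8.38 and 7.27 at day 2. On AT-II it stood at 7.89, 8.50, 8.44 and 8.13 at day 4, against 8.98, 7.52 and 7.82 at day 2. Its difference was 0.55 ± 0.32 on AT-I (limma adjusted p = 0.274) and 0.13 ± 0.35 on AT-II (limma adjusted p = 0.936).

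None of the 4 transcription factors passed. Sox18, a factor of early and lymphatic endothelium, stood on AT-I at 6.95, 6.85, 6.70 and 6.69 at day 4, against 6.22, 6.03, 6.16 and 6.70 at day 2. On AT-II, Sox18 stood at 6.74, 6.70, 6.93 and 6.98 at day 4, against 7.30, 6.57 and 6.71 at day 2. The Sox18 difference was 0.52 ± 0.17 on AT-I (limma adjusted p = 0.0558) and -0.02 ± 0.18 on AT-II (limma adjusted p = 0.980). Sox17, its arterial relative, differed by 0.44 ± 0.19 on AT-I and -0.02 ± 0.21 on AT-II. The ETS factors Erg and Fli1 differed by 0.09 ± 0.22 and 0.00 ± 0.16 on AT-I and by -0.18 ± 0.24 and -0.23 ± 0.17 on AT-II.

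Of the 5 measured genes of sprouting and arteriovenous identity, Aplnr rose on AT-I. Aplnr (array row 10837424) is the apelin receptor of sprouting and venous endothelium. On AT-I it stood at 6.48, 6.40, 6.71 and 6.43 at day 4, against 5.87, 5.65, 5.60 and 6.04 at day 2. On AT-II it stood at 6.32, 6.62, 6.72 and 6.68 at day 4, against 6.57, 5.99 and 5.78 at day 2. The days did not overlap on AT-I, and on AT-II replicate 1 of day 2 lay within the day 4 range. The Aplnr difference was 0.71 ± 0.16 on AT-I (fold 1.64, limma adjusted p = 0.00991) and 0.47 ± 0.18 on AT-II (limma adjusted p = 0.224). Centring every array on its median ended the AT-I call for Aplnr (0.56, limma adjusted p = 0.0610).

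Its ligand Apln, made by tip cells, differed by 0.24 ± 0.25 on AT-I and -0.06 ± 0.27 on AT-II. Esm1, a proteoglycan of tip cells, differed by 0.42 ± 0.20 and -0.03 ± 0.21, and Efnb2, the arterial ephrin, by 0.41 ± 0.18 and -0.08 ± 0.19. Dll4, the Notch ligand of tip cells, differed by 0.01 ± 0.18 on AT-I and 0.20 ± 0.19 on AT-II. On AT-I, Efnb2 did not overlap between the days.

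Without regard to the test, 8 of 38 genes lay higher at day 4 with no overlap on AT-I (21.1%), against 11.3% of all genes, and 1 lay lower (2.63%), against 4.01%. On AT-II, 3 lay higher (7.89%), against 8.73% of all genes, and 1 lower (2.63%), against 7.62%. When each array was centred on its median, the median over all genes moved to -0.21 on AT-I and -0.16 on AT-II. The median of the 38 genes was then 0.07 on AT-I, with 15 of 38 below 0, and -0.11 on AT-II. Both medians stayed above those of all genes. With this centring 3 of 38 genes passed on AT-I, a smaller share than the 14.5% of all genes that passed, and 1 of 38 on AT-II, against 2.94% of all genes.

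The 4 leukocyte adhesion genes did not pass. Within AT-I at day 2 the SD was 0.98 for Icam1 and 0.89 for Selp, against 0.52 for Vcam1 and 0.21 for Sele. Icam1, the adhesion molecule that inflammation raises on endothelium and leukocytes, stood on AT-I at 7.76, 8.13, 7.83 and 8.19 at day 4, against 10.30, 8.22, 8.41 and 8.45 at day 2. On AT-II, Icam1 stood at 7.93, 8.29, 8.27 and 8.38 at day 4, against 9.60, 8.38 and 8.37 at day 2. On both surfaces replicate 1 of day 2 stood far above the other samples. The Icam1 difference was -0.87 ± 0.37 on AT-I (limma adjusted p = 0.143) and -0.56 ± 0.40 on AT-II (limma adjusted p = 0.639). Without the replicate 1 in question it was -0.39 on AT-I (limma adjusted p = 0.370) and -0.16 on AT-II (limma adjusted p = 0.992).

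The same day 2 samples were high for Vegfa and for the hypoxia list. The mean of the 16 hypoxia response genes was 8.65, 8.87, 9.17 and 8.66 on AT-I at day 4, against 9.62, 8.85, 9.14 and 9.06 on AT-I at day 2. It was 8.91, 9.04, 9.08 and 9.09 on AT-II at day 4, against 9.36, 9.10 and 9.19 on AT-II at day 2. In both day 2 groups replicate 1 was the highest for Icam1, Vegfa and the hypoxia mean. In the same groups that replicate was the lowest for the stromal mean (8.70 on AT-I and 9.47 on AT-II) and for the osteoblast mean (6.75 and 6.84). Their part in the values of Icam1 and Vegfa was not tested.

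Selp and Vwf are stored by endothelial cells and by platelets. Selp, P-selectin, stood on AT-I at 7.28, 7.71, 6.70 and 6.70 at day 4, against 7.72, 8.51, 6.43 and 8.02 at day 2. On AT-II, Selp stood at 7.41, 7.45, 6.49 and 7.83 at day 4, against 8.81, 8.29 and 7.19 at day 2. Its difference was -0.57 ± 0.43 on AT-I (limma adjusted p = 0.394) and -0.80 ± 0.46 on AT-II (limma adjusted p = 0.516).

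Vwf, von Willebrand factor, stood on AT-I at 7.77, 8.10, 7.60 and 7.17 at day 4, against 8.16, 8.77, 6.87 and 7.96 at day 2. On AT-II it stood at 7.67, 7.90, 7.34 and 7.98 at day 4, against 8.93, 8.39 and 7.33 at day 2. Its difference was -0.28 ± 0.37 on AT-I and -0.49 ± 0.40 on AT-II. The range within AT-I at day 2 alone was wider than either difference for both genes.

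The mean of the 8 measured megakaryocyte and platelet genes, of 12 in the list, was 9.92, 10.11, 9.60 and 9.01 on AT-I at day 4, against 9.80, 10.53, 9.30 and 9.98 on AT-I at day 2. It was 9.72, 9.77, 9.37 and 9.94 on AT-II at day 4, against 10.48, 10.13 and 9.44 on AT-II at day 2. The sample highest for the platelet mean was also the highest for Vwf in each of the 4 groups, and for Selp in each of the 4 groups. The part of platelets in these values was not tested.

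Vcam1, which binds leukocytes to activated endothelium and is also made by marrow stromal cells, differed by -0.12 ± 0.24 on AT-I and -0.31 ± 0.26 on AT-II. Sele, E-selectin, a selectin of activated endothelium, differed by -0.14 ± 0.18 on AT-I and -0.22 ± 0.19 on AT-II, and lay between 5.12 and 6.09 in all samples.

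**Figure D3:**
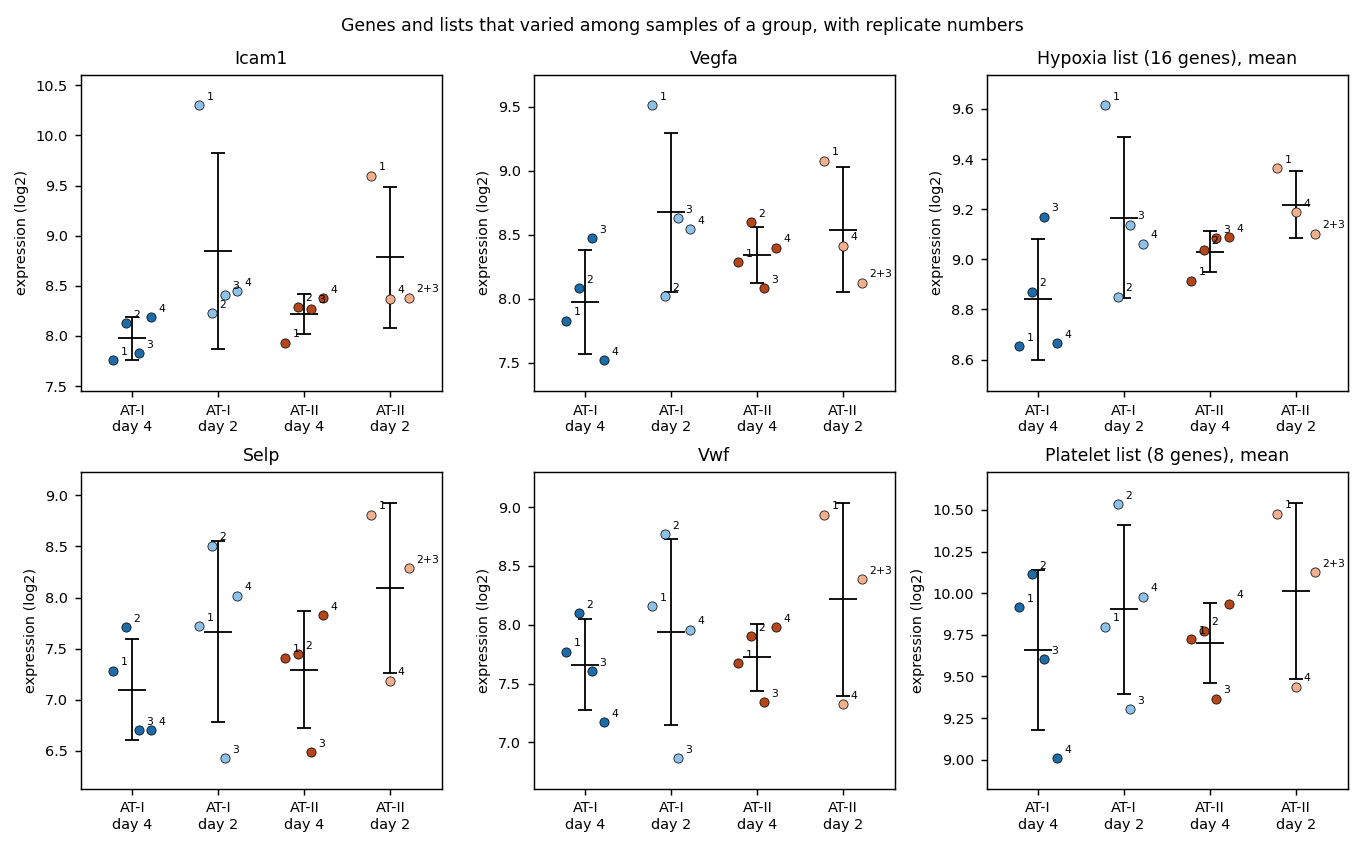
Expression (log2, y axis) of Icam1, Vegfa, Selp and Vwf and the mean of the hypoxia and platelet lists, with 1 point per sample, the replicate number beside it and the 4 groups on the x axis. The horizontal bar is the mean and the whisker the SD. Replicate 1 of day 2 is the highest day 2 sample for Icam1 on both surfaces (10.30 on AT-I and 9.60 on AT-II). Within each group, Selp and Vwf stand highest in the sample where the platelet mean does.

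The second question, which the study's design names, was how the surfaces differed. At day 2, 0 of 38 genes passed between AT-I and AT-II by limma, as did 0% of all genes (0 of 17245). At an unadjusted p under 0.05, 0 of 38 lay higher and 8 lower on AT-I, against 12.5% and 14.8% of all genes (27.3% in either direction). The median difference was -0.30, with 33 of 38 below 0, against -0.09 over all genes, with 9959 of 17245 below 0. The 33 became 29 when each array was centred on its median, 30 after another quantile normalization and 31 with the interquartile range as a covariate, with medians of -0.16, -0.13 and -0.19. Replicate 1 of AT-II at day 2 was the highest of its 3 samples for 26 of 38 genes. Without it the median was -0.12, against -0.09 over all genes, with 29 of 38 below 0.

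**Figure D4:**
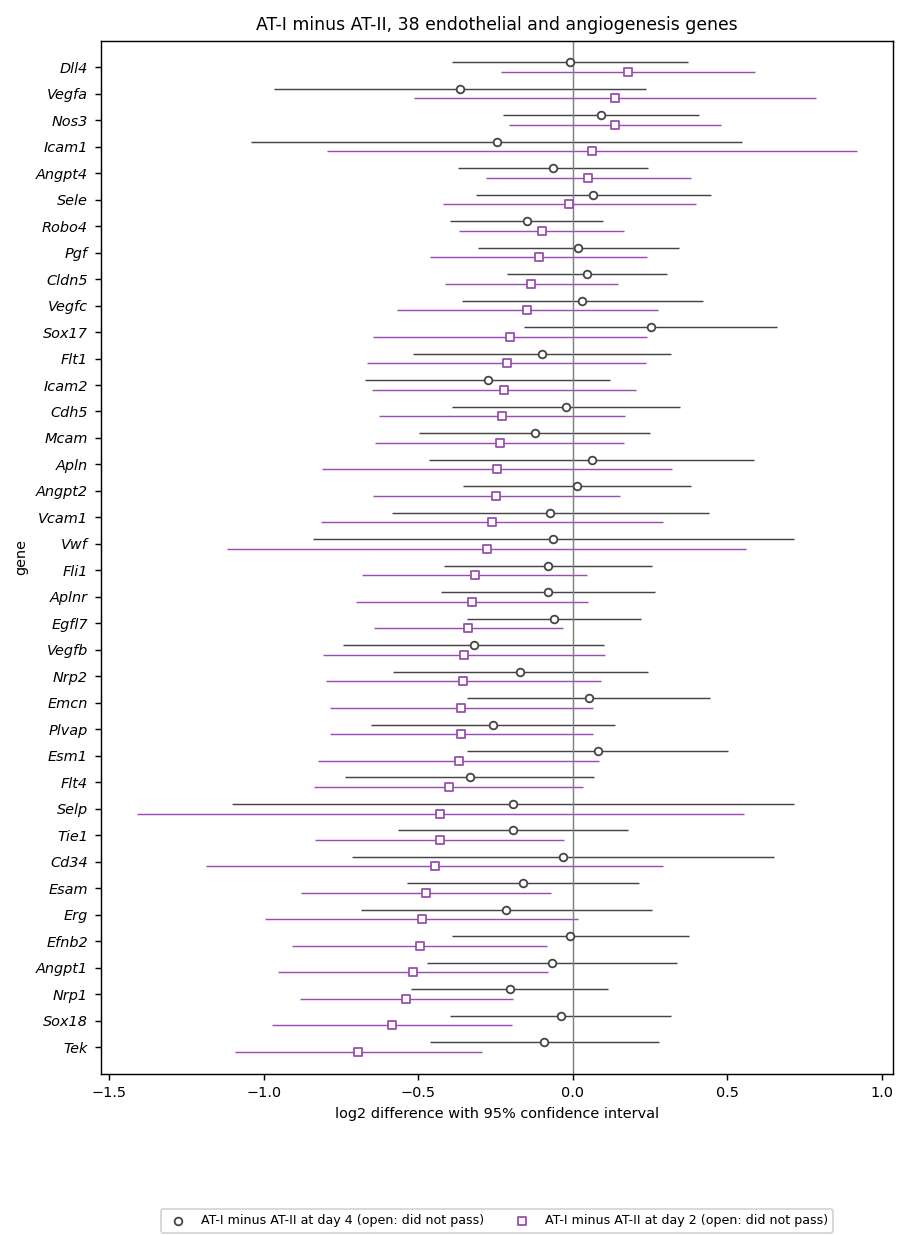
Difference between AT-I and AT-II (log2, x axis) for each of the 38 genes (y axis), at day 4 (circles) and day 2 (squares), with 95% confidence intervals. No gene passed at an adjusted p under 0.05, and 33 of 38 genes were below 0 at day 2, against 9959 of all 17245 genes.

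Tek, Nrp1 and Sox18 had the smallest p at day 2. Tek stood at 7.71, 7.45, 7.06 and 7.32 on AT-I, against 8.53, 7.94 and 7.76 on AT-II, with no overlap. The Tek difference was -0.69 ± 0.19 (limma adjusted p = 0.128). Nrp1 stood at 8.35, 8.85, 8.86 and 8.63 on AT-I, against 9.03, 9.32 and 9.28 on AT-II, also with no overlap, and differed by -0.54 ± 0.16 (limma adjusted p = 0.128). Sox18 stood at 6.22, 6.03, 6.16 and 6.70 on AT-I, against 7.30, 6.57 and 6.71 on AT-II, and differed by -0.58 ± 0.18 (limma adjusted p = 0.128). Esam, Tie1 and Esm1 also did not overlap, which makes 5 of 38 lower genes without overlap (13.2%), against 11.3% of all genes, while 0 of 38 lay higher without overlap, against 8.83%.

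With all 16 arrays counted separately, 3 of 38 genes were lower on AT-I at day 2 (7.89%), against 12.7% of all genes called in either direction and 6.68% called lower. These were Tek (-0.66, limma adjusted p = 0.0400), Nrp1 (-0.57, limma adjusted p = 0.0400) and Angpt1 (-0.60, limma adjusted p = 0.0495). With the pair averaged, the same 3 genes passed at day 2 with array quality weights, where 21.5% of all genes passed: Tek (-0.62, limma adjusted p = 0.0239), Nrp1 (-0.59, limma adjusted p = 0.0218) and Angpt1 (-0.55, limma adjusted p = 0.0465).

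At day 4, 0 of 38 genes passed between the surfaces by limma, as did 0% of all genes, and at an unadjusted p under 0.05 the counts were 0 of 38 and 3.98% of all genes. The median difference was -0.07, against -0.03 over all genes, with 28 of 38 below 0. No gene of the 38 lay higher or lower without overlap, against 0.789% and 1.41% of all genes. When each array was centred on its median, 16 of 38 were below 0. The smallest p belonged to Flt4, which stood at 7.05, 7.45, 6.62 and 6.86 on AT-I, against 7.22, 7.27, 7.37 and 7.46 on AT-II, a difference of -0.33 ± 0.19 (limma adjusted p = 0.913). The widest 95% intervals of the day 4 differences were those of Selp (-1.10 to 0.72) and Icam1 (-1.04 to 0.55).

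Calls between days on AT-I and not on AT-II do not by themselves show that the surfaces differ in time course. The difference of the time courses was tested directly, and 0 of 38 genes passed by limma, as did 0% of all genes. At an unadjusted p under 0.05 the count was 2 of 38, against 4.10% of all genes. Those 2 were Tek (0.60 ± 0.26, limma adjusted p = 0.924) and Sox18 (0.55 ± 0.25, limma adjusted p = 0.924). The median over the 38 genes was 0.21, against 0.03 over all genes, and it was 0.06 without the day 2 samples numbered 1 of both surfaces. For the genes that rose on AT-I alone, the difference of the time courses was 0.26 ± 0.26 for Angpt2, 0.25 ± 0.24 for Aplnr, 0.45 ± 0.28 for Angpt1 and 0.28 ± 0.20 for Egfl7.

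Other genes of the vessel wall were read from lists chosen by function. Of 27 measured further endothelial genes, of 28 in the list, 5 rose and 0 fell on AT-I, and 0 passed on AT-II. Of all genes, 8.84% were called higher and 2.66% lower on AT-I, and 3.13% higher and 0.203% lower on AT-II. The median of the list was 0.19 on AT-I and 0.03 on AT-II, against -0.05 over all genes on both surfaces. The 4 with the smallest p on AT-I were Clec14a, an endothelial lectin (0.70 ± 0.13, limma adjusted p = 0.00302), Calcrl, the adrenomedullin receptor (0.79 ± 0.17, limma adjusted p = 0.00615), Ptprb, the phosphatase that acts on Tek (0.67 ± 0.18, limma adjusted p = 0.0249), and S1pr1, the sphingosine phosphate receptor (0.54 ± 0.15, limma adjusted p = 0.0259). At day 2, 26 of 27 lay below 0 between AT-I and AT-II, with a median of -0.31 and 0 passing. Over all genes, 9959 of 17245 lay below 0, with a median of -0.09. Replicate 1 of AT-II at day 2 was the highest of its group for the mean of this list (7.40, against 7.18 and 7.26).

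Of 13 Notch and arterial or venous genes, 2 rose on AT-I and 1 on AT-II, against 8.84% and 3.13% of all genes called higher. Unc5b, a netrin receptor of tip cells and of other cells, rose by 2.18 ± 0.28 on AT-I (limma adjusted p = 0.000128) and by 1.95 ± 0.30 on AT-II (limma adjusted p = 0.00125). Hey2, an arterial Notch target, rose by 0.78 ± 0.15 on AT-I (limma adjusted p = 0.00249) and differed by 0.46 ± 0.16 on AT-II (limma adjusted p = 0.156).

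Of 13 measured angiogenesis inhibitors and vascular matrix genes, of 14 in the list, 6 rose on AT-I and 3 on AT-II, with medians of 0.51 and 0.40. Of all genes, 8.84% were called higher on AT-I and 3.13% on AT-II. Serpinf1, the angiogenesis inhibitor PEDF, rose by 2.37 ± 0.32 on AT-I and 2.08 ± 0.35 on AT-II. Hspg2, the basement membrane proteoglycan perlecan, rose by 1.30 ± 0.17 on AT-I and 1.02 ± 0.18 on AT-II. Sema3a, a semaphorin that binds Nrp1, rose by 0.83 ± 0.15 on AT-I and 0.88 ± 0.17 on AT-II. The limma adjusted p of the 3 genes ran from 0.000140 to 0.00262 on AT-I and from 0.00255 to 0.00635 on AT-II. Stromal cells and osteoblasts also make genes of this list, and their markers also rose. The part of these cells in the differences was not tested.

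Of all genes, 8.84% were called higher on AT-I and 3.13% on AT-II. Of 11 measured pericyte and smooth muscle genes, of 13 in the list, 3 rose on AT-I and 1 on AT-II. They were Rgs5 (1.10 ± 0.23 on AT-I, limma adjusted p = 0.00511, and 0.42 ± 0.25 on AT-II, limma adjusted p = 0.523), Notch3 (0.70 ± 0.15 on AT-I, limma adjusted p = 0.00600) and Cspg4 (1.33 ± 0.29 on AT-I, limma adjusted p = 0.00760, and 1.31 ± 0.31 on AT-II, limma adjusted p = 0.0303). On AT-I, 2.66% of all genes were called lower. Of the 16 hypoxia response genes, 1 fell on AT-I: Egln3, a hypoxia-induced prolyl hydroxylase, by 1.43 ± 0.32 on the log2 scale (limma adjusted p = 0.00876). Its difference on AT-II was -0.72 ± 0.35 (limma adjusted p = 0.407).

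For the lists of other cells, the shares of all genes were 8.84% called higher and 2.66% lower on AT-I. They were 3.13% higher and 0.203% lower on AT-II. Of these lists, 7 of 8 measured stromal markers rose on AT-I and 4 of 8 on AT-II, with medians of 1.77 and 1.46. Of 7 osteoblast markers, 7 rose on AT-I and 6 on AT-II, with medians of 2.84 and 2.58. Of the 6 lymphatic markers, the 8 platelet genes, the 7 haematopoietic progenitor genes and the 7 erythroid genes, 0 passed on either surface. Of 8 macrophage markers Cd14 fell on AT-I (-0.67 ± 0.15, limma adjusted p = 0.00780), and of 10 neutrophil markers Csf3r fell on AT-I (-0.92 ± 0.21, limma adjusted p = 0.00907), with 0 passing on AT-II.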

How the data were processed

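RNA of implant-adherent cells was measured on 16 arrays, according to the labels. The values deposited by the authors are treated here as log2 expression. The submitters' processing notes name RMA and Affymetrix Expression Console, with no version. Filters and the annotation's build are not stated in the sources at hand, and log base 2 is an inference from RMA on which each difference and fold rests. RMA as usually run equalises the distribution of values between arrays, but the values used here were not equal in spread or median. The interquartile range of single arrays ran from 2.485 to 3.426 and the median from 6.565 to 6.916. At day 2 the interquartile range was 2.485 to 2.976 on AT-I and 3.052 to 3.412 on AT-II, without overlap. The cause of this was not tested.

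Of 29214 rows, 18644 named 1 gene through the platform annotation, 962 several and 9608 none. The brightest row stood for each of 879 genes with more than 1. RefSeq's GRCr8 table held 18460 of the named rows and changed 0 symbols. Coordinates are printed for promoters only.

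The members, the lists and the tests were chosen with earlier results of these data known. Groups came from sample titles. A group-means model was fitted in limma 3.58.1 (lmFit, eBayes; R 4.3.3) to 17245 genes over 15 samples, two-sided and without covariates, with 11 residual and 4.44 prior degrees of freedom and Benjamini-Hochberg adjustment over all genes. Replicates are separate samples of tibiae, and p-values measure only the spread between these samples. The planned design had counted 16 arrays, and 2 were averaged because they agreed too closely, after results of all 16 had been seen. In simulated data (5 simulations, in each of which 200 of 17245 genes were shifted by 1 log2 unit), 78.9% were recovered between days on AT-I, 73.6% between days on AT-II, 75.7% between surfaces at day 2 and 80.4% at day 4, with 5.01%, 3.93%, 4.91% and 5.16% false calls. The simulated noise was independent between genes and samples. Deviations of the real arrays were shared across genes (correlation 0.642 between the day 2 samples numbered 1). The rates therefore hold only for independent noise and a shift of 1, and most differences reported here were smaller.

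Every one of the 42 genes may be named. Values in every sample are given at least for genes that passed in a comparison and for the smallest p between days in each role group. From each other list, up to 4 genes with the smallest p are named. Alternatives were 28 settings: 15 left out 1 sample, 11 others were planned and 2 were added after seeing the data. The 2 were the replicate number within each day as a random block, and both day 2 samples numbered 1 left out. Python 3.11.15 with pandas 2.3.3, numpy 2.4.6 and matplotlib 3.10.9 made tables and plots.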

Additional observations from a re-analysis of the deposited data

Results flagged for a closer look

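In groups of 4 samples, a sample was singled out where its gap to the nearest other sample exceeded Dixon's limit for the group's range. Of 114 groups of values tested, 8 did so, and chance gives about 1 in 20. AT-II at day 2, with 3 samples, was not tested.

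Icam1 was 10.3 in replicate 1 of AT-I at day 2, against 8.22 to 8.45 in the other samples of that group. Tie1 was 8.10 in the same sample, against 8.61 to 8.65. Pgf was 5.83 in replicate 2 of AT-I at day 2, against 6.33 to 6.42, and 6.86 in replicate 4 of AT-I at day 4, against 7.09 to 7.12. Cldn5 was 5.59 in replicate 3 of AT-I at day 2, against 5.90 to 5.96. Cd34 was 7.83 in replicate 2 of AT-I at day 4, against 8.31 to 8.36. Angpt1 was 8.62 in replicate 3 of AT-I at day 4, against 8.97 to 9.03. Tek was 8.26 in replicate 4 of AT-II at day 4, against 7.88 to 7.93. Both marked Pgf samples are the lowest of their groups, on either side of a day difference that passed in all 28 other settings on AT-I.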

How the results depend on the processing

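Of 5 comparisons, 28 other settings were run on each, except that a fit with only the groups compared was not run for the difference of the time courses, which needs all 4 groups. On AT-I, 6 genes passed between days, against 3 with each array centred on its median (14.5% of all genes passed there, so that the members fell below the share of all genes, while 11.5% passed in the fit as reported), 5 with the replicate number as a random block (11.7% of all genes) and 4 to 10 leaving out 1 sample at a time. The 10 was without replicate 1 of AT-II at day 2. On AT-II, 2 genes passed between days (3.33% of all genes). With each array centred on its median 1 passed (2.94% of all genes), as did 1 after repeated quantile normalization (2.8%) and 1 with only the groups compared (3.22%). With array quality weights 5 passed, where 7.12% of all genes passed. Leaving out 1 sample at a time, 1 to 2 passed, while the share of all genes ran from 1.29% to 4.02%. The count was 1 without replicate 1, 4 or the averaged sample of AT-II at day 2, without replicate 1, 3 or 4 of AT-II at day 4, and without replicate 1 of AT-I at day 4. Between surfaces at day 2, 0 passed, and 0 to 0 passed leaving out 1 sample at a time. With all 16 arrays counted separately 3 passed (12.7% of all genes), as did 3 with array quality weights (21.5% of all genes). Between surfaces at day 4 and in the difference of the time courses, 0 passed in every setting run. Leaving out a sample moved the AT-I count in either direction, and the cause of these shifts was not tested. Groups shared replicate numbers, and no label says what a number marks. Deviations of same-numbered samples correlated at 0.642, 0.505, -0.258 and 0.153 at day 2 and 0.131, -0.339, 0.468 and 0.201 at day 4. Not every sample correlated best with its own number. Whether the numbers pair the samples is therefore unknown. With the replicate number as a block, 10 genes passed on AT-I (16.6% of all genes) and 2 on AT-II (3.44%), with 0 between surfaces at day 2. For the comparisons between days, this block joined same-numbered samples of day 2 and day 4, which came from different rats. With that replicate block and all 16 arrays counted separately, 10 passed on AT-I (14.9% of all genes) and 3 on AT-II (5.33%). In the same setting 6 passed between surfaces at day 2, all 6 lower on AT-I. Of all genes, 22.2% passed there in either direction, so that the members fell below that share. The share of all genes called lower in that setting is not given here. Of 5277 differences of single genes in these settings, 0 reversed a called direction, 40 lost a call, 46 gained one and 5191 kept their side of the threshold. Without detection calls, the signal over background of the lowest rows is unknown.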
